A study of Homo sapiens with 6 samples.

Results

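The mitosis and spindle genes described here are 40 genes, taken by name, whose products act between the entry into mitosis and the separation of the daughter cells. All 40 were found among the 17468 genes of the deposited table, and all 40 passed the filter on low values that left 11129 genes for testing. They fall into 10 roles. The cyclins, CDK1 and the transcription factor FOXM1 come first, then the kinases AURKA, PLK1 and NEK2, and then the spindle checkpoint. Next are an activator and the ubiquitin-conjugating enzyme of the anaphase-promoting complex with securin, the chromosomal passenger complex, and kinesin motors. The remaining roles are the centromere and kinetochore, spindle assembly factors, the midzone and cytokinesis, and the pair TOP2A and MKI67.

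Expression was measured by RNA sequencing in Colo800 and A375, both human melanoma cell lines, 4 days after infection with a virus carrying 1 of 3 short hairpin RNAs. Of these hairpins, ETV1-sh2 and ETV1-sh1 target ETV1, a transcription factor of the ETS family, and the third is scrambled. Each line has 1 library per hairpin, so 4 libraries carry an ETV1 hairpin and 2 the scrambled one, and no hairpin has a replicate within a line. The study's design text speaks of duplicate infections, and the sources used here do not say whether a library pools them. The treatment field of the labels gives 5 nM trametinib (a MEK inhibitor) for the ETV1-sh2 libraries, DMSO for the ETV1-sh1 libraries and 1 uM vemurafenib (a BRAF inhibitor) for the scrambled libraries. The protocol field of the labels speaks of siRNA for 48 hours and drug for 8 hours, while the design text mentions none. Each labelled treatment thus goes with 1 hairpin, so hairpin and labelled treatment cannot be told apart in any comparison between hairpins. In what follows the libraries are called by their hairpin.

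Cells make most mitotic proteins in a short window before division and destroy many of them at its end. Cyclin B bound to the kinase CDK1 drives entry into mitosis, the spindle checkpoint holds the cell until every chromosome is attached to the spindle, and the anaphase-promoting complex then marks cyclin B and securin for destruction. Transcription of these genes in the late cell cycle is known to pass through a promoter sequence called the cell cycle genes homology region (CHR). The CHR is bound by the MuvB core, within the repressive DREAM complex in resting cells and together with B-MYB and FOXM1 in dividing cells, and it often lies downstream of CCAAT boxes, which bind the factor NF-Y.

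A RefSeq promoter window, from 250 bases before to 50 bases after the transcription start in GRCh38.p14, was found for 34 of the 40 members, in 38 windows since some genes have several starts. FOXM1, AURKA, TTK, UBE2C, BIRC5 and TPX2 had none in the table used. The last 110 bases before the start are shown for 8 members because they carry the letters of the CHR, of its TTTAAA form or of the CCAAT box close to the start, and for ECT2 (the first of its 2 windows), the member whose level differed least between hairpins. Capitals mark TTTGAA or TTTAAA and CCAAT on either strand (TTCAAA and ATTGG are the opposite strand of TTTGAA and CCAAT). Each line runs 5′ to 3′ on the gene's own strand. ECT2 holds TTTGAA as well, outside the stretch shown, with first bases at -115 and 34 from the start in this window.
CCNB2 (chr15:59105036-59105145, plus strand): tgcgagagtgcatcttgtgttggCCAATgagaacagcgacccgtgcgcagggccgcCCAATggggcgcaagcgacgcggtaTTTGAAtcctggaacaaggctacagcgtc
CCNB1 (chr5:69167040-69167149, plus strand): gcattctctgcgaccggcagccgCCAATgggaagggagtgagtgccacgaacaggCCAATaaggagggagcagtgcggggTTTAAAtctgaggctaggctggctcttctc
PLK1 (chr16:23678779-23678888, plus strand): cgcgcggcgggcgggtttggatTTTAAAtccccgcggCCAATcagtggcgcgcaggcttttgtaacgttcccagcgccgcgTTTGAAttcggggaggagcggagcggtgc
CDC20 (chr1:43358871-43358980, plus strand): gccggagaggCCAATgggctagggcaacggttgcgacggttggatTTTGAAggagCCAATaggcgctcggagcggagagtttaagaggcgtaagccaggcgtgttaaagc
KIF20A (chr5:138179002-138179111, plus strand): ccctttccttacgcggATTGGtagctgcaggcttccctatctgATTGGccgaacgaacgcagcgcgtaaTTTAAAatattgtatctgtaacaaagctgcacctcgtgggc
TOP2A (chr17:40417897-40418006, minus strand): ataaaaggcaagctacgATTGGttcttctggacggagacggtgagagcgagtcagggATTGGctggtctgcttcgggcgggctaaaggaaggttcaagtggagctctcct
PRC1 (chr15:90994536-90994645, minus strand): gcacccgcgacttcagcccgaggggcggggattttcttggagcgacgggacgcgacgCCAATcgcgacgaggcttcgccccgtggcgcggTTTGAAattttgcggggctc
ANLN (chr7:36389752-36389861, plus strand): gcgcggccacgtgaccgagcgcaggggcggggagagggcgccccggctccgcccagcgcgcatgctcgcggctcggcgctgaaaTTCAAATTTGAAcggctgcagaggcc
ECT2 (chr3:172750616-172750725, plus strand): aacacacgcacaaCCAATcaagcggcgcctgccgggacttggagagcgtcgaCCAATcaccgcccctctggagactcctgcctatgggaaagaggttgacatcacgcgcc

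The TTTGAA letters stood in at least 1 window of 25 of the 34 members with a window (73.5%), against 13.9% of the 8711 tested genes with a window and 18.2% of all 27305 genes with one. TTTAAA, which reads the same on both strands, was found in 38.2% of the members, 11.2% of the tested genes and 14.5% of all genes. Either form was present in 30 of the 34 members (88.2%), against 21.6% of the tested genes and 27.9% of all genes. CCAAT was found in 82.4% of the members, 43.9% of the tested genes and 39.7% of all genes. A CHR form and a CCAAT in the same window occurred in 24 members (70.6%), against 9.08% of tested genes and 11.2% of all genes. CCGGAA, a core sequence of ETS factors, was searched in the same way on both strands (TTCCGG on the other) and was found in 26.5% of the members, 35% of the tested genes and 20.1% of all genes. The plot of motif matches along the promoter shows where in the window they lie. A gene was counted once, however many matches its windows held and whether or not they overlapped. A match describes letters only, and binding was not measured.

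**Figure D1:**
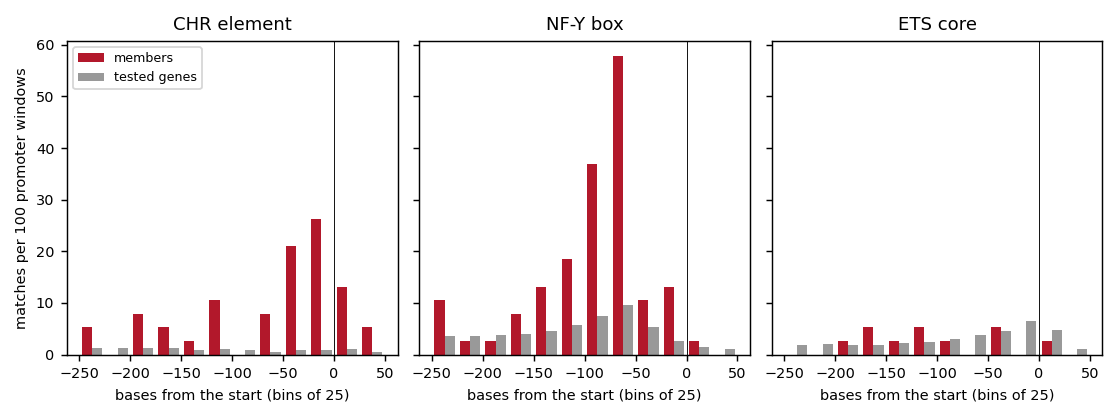
Matches per 100 promoter windows (vertical axis) in bins of 25 bases from the transcription start (horizontal axis) for TTTGAA (CHR element), CCAAT (NF-Y box) and CCGGAA (ETS core), in the 38 windows of the members (red) and the windows of all tested genes (grey). In the members, CHR matches were most frequent in the 25 bases just before the start, with 26.32 per 100 windows.

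ETV1 itself stood at 9.8 FPKM with ETV1-sh2, 54.6 FPKM with ETV1-sh1 and 180.3 FPKM with the scrambled hairpin in Colo800, and at 3.46, 34.6 and 82.8 FPKM in A375 in the same order of hairpins. FPKM are fragment numbers corrected for transcript length and library size. ETV1-sh2 thus left 5.43% of the scrambled level in Colo800 and 4.18% in A375, and ETV1-sh1 left 30.3% and 41.8%. The libraries had 10418 to 11013 genes at an FPKM of at least 1 and FPKM sums of 589256 to 710498. Absolute depth is unknown. Relative to the A375 scrambled library, the steps between low values gave a depth of 0.769 to 0.859 for the Colo800 libraries, 2.1 for A375 ETV1-sh2 and 1.43 for A375 ETV1-sh1. Each of these is the commonest ratio among low genes, held by only 6.8% to 9.25% of those compared, and is an estimate. Of the melanocyte lineage markers, SOX10 stood at 549 to 712 FPKM in Colo800 and 353 to 556 FPKM in A375, while TYR and DCT were below 0.1 FPKM in every A375 library. In Colo800, TYR stood at 14.8 to 84.9 FPKM and DCT at 70.8 to 125 FPKM. MITF stood at 38.4 to 116 FPKM in Colo800 and 8.61 to 12.6 FPKM in A375. TYRP1 was low in both lines, and did not pass 1.7 FPKM in Colo800 or 0.604 FPKM in A375. MLANA, a pigment cell antigen, did not pass 1.85 FPKM in Colo800 or 0.481 FPKM in A375.

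With ETV1-sh2, every one of the 40 members was below the scrambled library of its line, in both lines. The members' median FPKM was 26.6 with ETV1-sh2 against 50.6 with the scrambled hairpin in Colo800, and 2.27 against 16.7 in A375. The median member kept 55.1% of its scrambled level in Colo800 and 12.7% in A375. Together the members made up 0.244% of the FPKM sum with ETV1-sh2 against 0.436% with the scrambled hairpin in Colo800, and 0.0341% against 0.153% in A375. A difference of 2-fold or more downward on the log2(FPKM + 1) scale was seen in 13 members in Colo800, where 6.38% of all tested genes differed that far, and in 38 members in A375, where 8.29% did. The 2 exceptions in A375 were KIF11 and ECT2. In bulk RNA, fewer dividing cells and less RNA per dividing cell cannot be told apart.

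**Figure D2:**
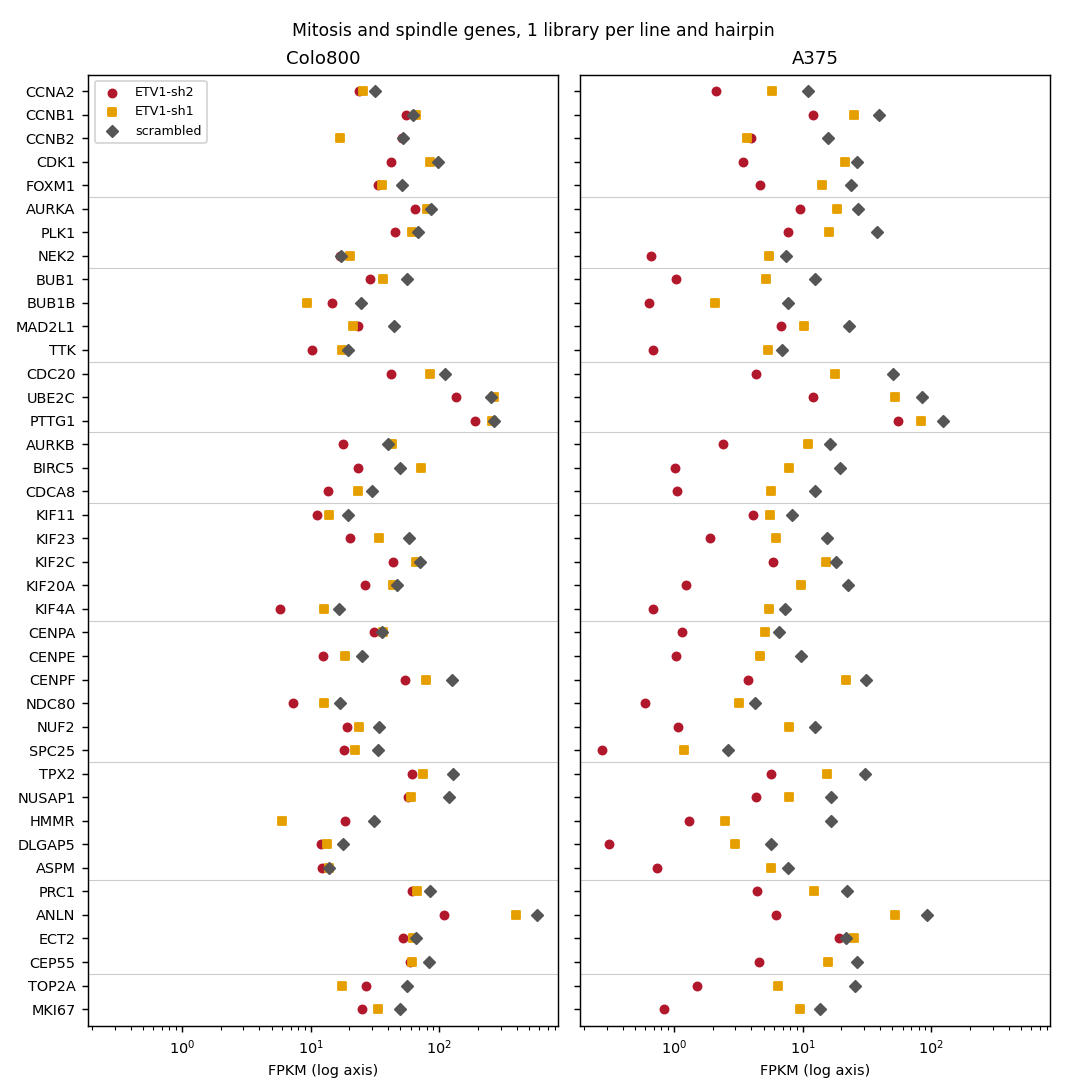
FPKM (log axis) of each of the 40 members in Colo800 (left) and A375 (right) with ETV1-sh2 (red circles), ETV1-sh1 (orange squares) and the scrambled hairpin (grey diamonds), 1 library per point, with roles set apart by lines. In A375 the circles lie to the left of the diamonds in all 40 members, least so in ECT2, and in Colo800 they lie closer to them in 39 members.

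Over both lines, 27 of the 40 members were lower with ETV1-sh2 than with the scrambled hairpin at an adjusted p under 0.05 (limma on log2(FPKM + 1) with the line as a block, Benjamini-Hochberg adjustment over all 11129 genes), and 0 were higher, of which none was higher at an unadjusted p under 0.05 either. Of all tested genes, 9.00% were lower and 7.73% higher. The members' fitted changes ranged between -3.04 in ANLN and -0.26 in ECT2, with a median of -1.49 against 0.05 over all tested genes. In this fit the lines stand in for replicates and 2 residual degrees of freedom remain. Its residual spread is how far the hairpin differences disagree between the lines. The median SE was 0.361 for the members and 0.208 over all tested genes. The number of calls moved with the libraries used: it was 38 without the Colo800 ETV1-sh2 library, 17 without the A375 ETV1-sh2 library, 5 without either one of the ETV1-sh1 libraries, 14 without the Colo800 scrambled library and 1 without the A375 scrambled library. All 40 fitted changes were negative in each of those fits. Leaving out an ETV1-sh1 library could not alter them, since the comparison then rests only on the ETV1-sh2 and scrambled libraries. The sign in those fits is therefore no further evidence. Without the filter on low values 0 members and 0 of all genes were lower at the adjusted threshold, with 34 members at an unadjusted p under 0.05. Some markers of fibroblasts moved with the same hairpin. COL1A1, PDGFRB and LUM, the 3 fibroblast markers of 6 that passed the filter, were higher with ETV1-sh2 by the test. The list's summed level was 29.7 FPKM with ETV1-sh2, 10.7 with ETV1-sh1 and 9.78 scrambled in Colo800 and 34.7, 15.6 and 13.1 in A375. Of the markers below the filter, COL3A1 did not pass 0.106 FPKM in any library. COL1A2 was lower with ETV1-sh2 than scrambled in Colo800 (1.32 against 1.78 FPKM) and did not pass 0.0726 FPKM in A375. DCN was higher with ETV1-sh2, at 0.441 against 0.113 FPKM scrambled in Colo800 and 4.08 against 0.423 FPKM in A375. The part of these markers in the members' changes was not tested.

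**Figure D3:**
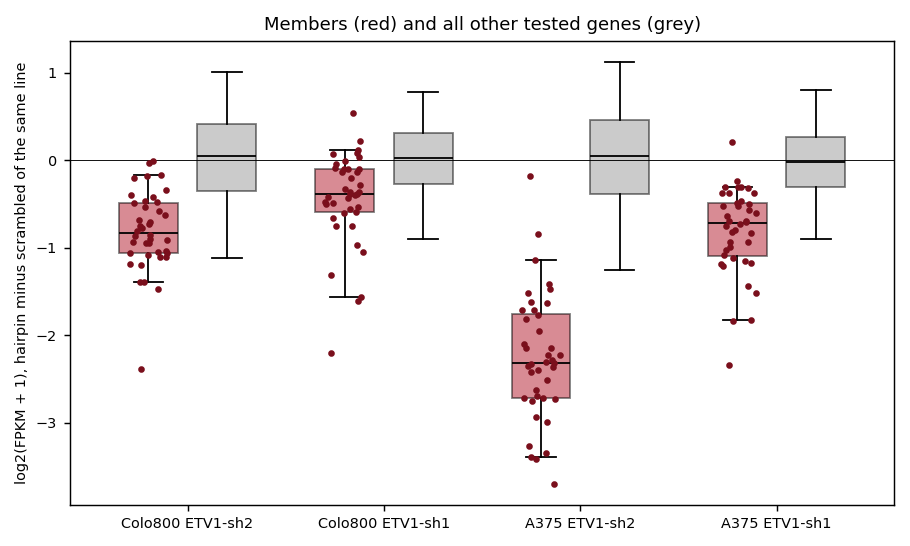
Difference of log2(FPKM + 1) between each hairpin library and the scrambled library of its line (vertical axis), for the 40 members (red, points and boxes) and all other tested genes (grey boxes), with boxes between the quartiles, lines at the medians and whiskers at the percentiles 5 and 95. The members' medians are -0.83 and -0.38 in Colo800 with ETV1-sh2 and ETV1-sh1, and -2.31 and -0.72 in A375, while those of all tested genes lie between -0.02 and 0.05.

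Among the cyclins, CDK1 and FOXM1, 2 of 5 passed the test with ETV1-sh2. CDK1, the kinase that drives mitotic entry, stood at 42.4 FPKM with ETV1-sh2, 85 FPKM with ETV1-sh1 and 97.7 FPKM scrambled in Colo800, and at 3.47, 21.3 and 26.6 FPKM in A375. In both lines the ETV1-sh2 library was the lowest and the other 2 were close, and CDK1 was lower with ETV1-sh2 by the test (-1.91, SE 0.356, adjusted p = 0.0217). FOXM1, which activates late cell cycle genes, had 33.3, 36.2 and 51.8 FPKM in Colo800 in the same order and 4.64, 14.2 and 23.9 FPKM in A375, and it passed narrowly (-1.38, SE 0.366, adjusted p = 0.0498). CCNB1, which encodes cyclin B1, had 55.1, 66.2 and 62.7 FPKM in Colo800 and 12.1, 25 and 39.5 FPKM in A375. In Colo800 its 3 libraries lie close together, and the fitted change of -0.90 did not pass (adjusted p = 0.105). CCNA2, the cyclin of S phase and early mitosis, kept 75.0% of its scrambled level in Colo800 and 19.2% in A375 with ETV1-sh2 (-1.17, adjusted p = 0.0703).

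CCNB2, which encodes cyclin B2, had another order of libraries. It stood at 51.2 FPKM with ETV1-sh2, 17 FPKM with ETV1-sh1 and 52.3 FPKM scrambled in Colo800, and at 3.97, 3.71 and 15.9 FPKM in A375. In Colo800 only the ETV1-sh1 library was low, while in A375 both ETV1 hairpins were. Its fitted change was -0.90 with ETV1-sh2 (SE 0.406, adjusted p = 0.17) and -1.70 with ETV1-sh1 (adjusted p = 0.0991), and neither passed.

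Of the 3 mitotic kinases, PLK1 passed. PLK1, which acts in spindle assembly and mitotic entry, had 45.1, 62 and 67.9 FPKM with ETV1-sh2, ETV1-sh1 and scrambled in Colo800 and 7.7, 16.1 and 37.6 FPKM in A375 (-1.37 with ETV1-sh2, SE 0.355, adjusted p = 0.0478). AURKA, the kinase of the spindle poles, kept 74.3% of its scrambled level in Colo800 and 35.4% in A375 with ETV1-sh2 (-0.92, adjusted p = 0.0548). NEK2, a centrosome kinase, differed most of the 3 between the lines: it kept 99.1% in Colo800 and 9.03% in A375 (-1.17, SE 0.511, adjusted p = 0.157).

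All 4 spindle checkpoint genes were lower with ETV1-sh2 by the test, with fitted changes between -1.83 and -1.27. BUB1, a kinase that recruits other checkpoint proteins to kinetochores, had 28.9, 36.6 and 56 FPKM in Colo800 and 1.04, 5.17 and 12.4 FPKM in A375 in the order of ETV1-sh2, ETV1-sh1 and scrambled. In both lines the 3 libraries of BUB1 stood in this order (-1.83 with ETV1-sh2, adjusted p = 0.0318). TTK, also called MPS1, starts checkpoint signalling and had 10.3, 17.6 and 19.5 FPKM in Colo800 and 0.691, 5.42 and 6.91 FPKM in A375. For TTK the ETV1-sh1 libraries stayed near the scrambled ones (-0.22, adjusted p = 0.77). BUB1B and MAD2L1, a pair of subunits of the mitotic checkpoint complex that holds CDC20, are described below with ETV1-sh1.

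CDC20 and UBE2C, which work with the anaphase-promoting complex, and securin were all lower with ETV1-sh2 by the test. CDC20, the activator that the checkpoint blocks, had 42, 85.2 and 111 FPKM in Colo800 and 4.32, 17.9 and 50.1 FPKM in A375 (-2.33 with ETV1-sh2, SE 0.405, adjusted p = 0.0194). UBE2C, the ubiquitin-conjugating enzyme of the complex, had 136, 268 and 255 FPKM in Colo800 and 12, 51.9 and 84.7 FPKM in A375. In Colo800 the ETV1-sh1 library of UBE2C was no lower than the scrambled one, whereas the ETV1-sh2 library was (-1.81, adjusted p = 0.0303). PTTG1, which encodes securin, the inhibitor of separase, kept 71.6% in Colo800 and 44.9% in A375 (-0.81, SE 0.203, adjusted p = 0.0438).

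The chromosomal passenger complex corrects faulty attachments and later works at the midzone, and its 3 members were lower with ETV1-sh2 by the test. BIRC5, or survivin, stood at 23.2 FPKM with ETV1-sh2, 72.6 FPKM with ETV1-sh1 and 49.4 FPKM scrambled in Colo800, and at 1.01, 7.87 and 19.5 FPKM in A375. Its ETV1-sh1 library was above the scrambled one in Colo800, at 147% of it, and below it in A375, at 40.4%. The fitted change of BIRC5 with ETV1-sh2 was -2.20 (SE 0.504, adjusted p = 0.0346). AURKB, the kinase of the complex, had 18, 43.1 and 39.7 FPKM in Colo800 and 2.4, 11.1 and 16.4 FPKM in A375 (-1.73, adjusted p = 0.0194). CDCA8, or borealin, kept 45.4% in Colo800 and 8.39% in A375 (-1.90, adjusted p = 0.0244).

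All 5 kinesins were lower with ETV1-sh2. KIF23, the motor of centralspindlin, had 20.2, 33.9 and 57.8 FPKM in Colo800 and 1.89, 6.21 and 15.4 FPKM in A375, and the 3 hairpins kept this order in both lines (-1.99 with ETV1-sh2, SE 0.267, adjusted p = 0.0122). KIF4A, a chromosome-bound motor that also sets midzone length, had 5.76, 12.8 and 16.7 FPKM in Colo800 and 0.685, 5.44 and 7.33 FPKM in A375 (-1.85, adjusted p = 0.0151). KIF20A, needed for cytokinesis, kept 56.3% in Colo800 and 5.42% in A375 (-2.11, SE 0.547, adjusted p = 0.0477). KIF2C, which takes apart microtubules at faulty attachments, kept 61.7% and 32.5% (-1.08, adjusted p = 0.0297). KIF11, the motor that pushes spindle poles apart, had the smallest fitted change of the 27 (-0.80, SE 0.179, adjusted p = 0.0335), and its remaining level was 57.5% in Colo800 and 50.2% in A375.

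Of the 6 centromere and kinetochore genes, 4 passed. CENPF, a large coiled-coil protein of the outer kinetochore, had 54.4, 79.2 and 126 FPKM in Colo800 and 3.79, 21.8 and 31.2 FPKM in A375 (-1.97 with ETV1-sh2, adjusted p = 0.0277). NDC80, which binds microtubules, had 7.32, 12.7 and 16.9 FPKM in Colo800 and 0.597, 3.21 and 4.25 FPKM in A375. The change of NDC80 was -1.41 (SE 0.242, adjusted p = 0.0189). Its partners in the NDC80 complex, SPC25 and NUF2, had changes of -1.19 (adjusted p = 0.0246) and -1.73 (adjusted p = 0.0507), so NUF2 missed the threshold narrowly. SPC25 was the lowest member in A375, at 0.274 FPKM with ETV1-sh2, 1.19 with ETV1-sh1 and 2.64 scrambled, where the log2(FPKM + 1) scale understates its fold. CENPE, the kinesin of the kinetochore, passed (-1.67, adjusted p = 0.0269), and CENPA, the histone variant that marks centromeres, kept 86.7% in Colo800 and 17.6% in A375 and did not (-1.01, adjusted p = 0.115).

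TPX2 and NUSAP1 were the 2 of 5 spindle assembly factors that passed. TPX2, which activates AURKA and nucleates microtubules, had 61, 74.7 and 127 FPKM in Colo800 and 5.73, 15.5 and 30.6 FPKM in A375 (-1.64 with ETV1-sh2, SE 0.299, adjusted p = 0.0209). NUSAP1, which bundles spindle microtubules, had 57.1, 60.9 and 120 FPKM in Colo800 and 4.38, 7.88 and 16.7 FPKM in A375. In Colo800 the NUSAP1 levels of both ETV1 hairpins were alike and well below the scrambled one (-1.39 with ETV1-sh2, adjusted p = 0.0158). ASPM, a spindle pole protein, kept 88.2% in Colo800 and 9.63% in A375 (-1.24, adjusted p = 0.128). DLGAP5, which stabilises microtubules, kept 67.4% and 5.49% (-1.44, adjusted p = 0.0661).

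ANLN showed the largest fitted change of all 40 members with ETV1-sh2. It encodes anillin, the scaffold of the contractile ring in cytokinesis. ANLN stood at 109.9 FPKM with ETV1-sh2, 396 FPKM with ETV1-sh1 and 576 FPKM scrambled in Colo800, and at 6.19, 52.6 and 92.1 FPKM in A375. In both lines the ETV1-sh2 library is far below the other 2, at 19.1% of the scrambled level in Colo800 and 6.73% in A375, and the change was -3.04 (SE 0.314, adjusted p = 0.00816). ANLN was the only one of the 27 called members that stayed past the threshold in all 6 fits leaving out 1 library. The other genes of the midzone and cytokinesis did not pass: PRC1, which crosslinks midzone microtubules, had a fitted value of -1.28 (adjusted p = 0.0621) and CEP55, which organises abscission, of -1.39 (adjusted p = 0.0685). ECT2, which activates RhoA at the division plane, had 52.3, 62.3 and 66.4 FPKM in Colo800 and 19.1, 25.3 and 21.8 FPKM in A375. Its libraries lie close together in both lines (-0.26, SE 0.167, adjusted p = 0.304).

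TOP2A and MKI67 both passed with ETV1-sh2. MKI67, which encodes the proliferation marker Ki-67 on the surface of mitotic chromosomes, stood at 25, 33.3 and 49.3 FPKM in Colo800 and at 0.834, 9.54 and 13.6 FPKM in A375 (-1.97, SE 0.508, adjusted p = 0.0469). In A375 the MKI67 level with ETV1-sh2 was 6.13% of the scrambled one, against 50.8% in Colo800. TOP2A, the topoisomerase that untangles sister chromatids, changed by -2.22 (SE 0.544, adjusted p = 0.0416).

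**Figure D4:**
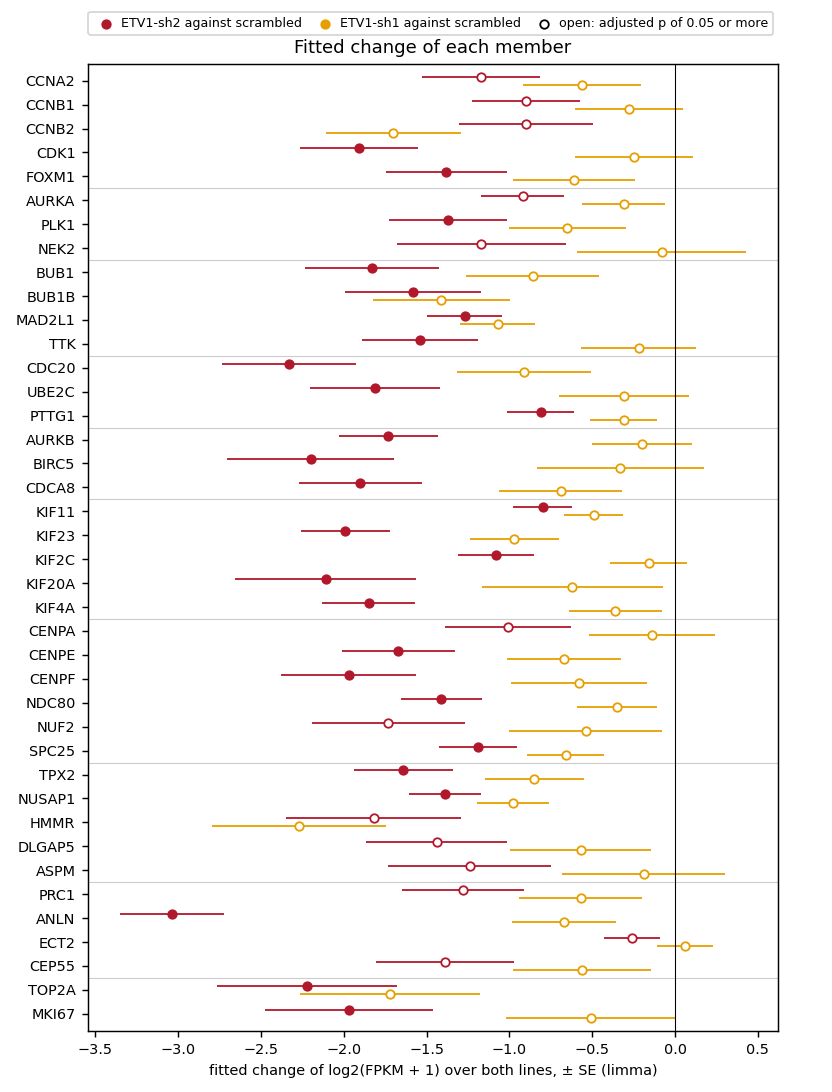
Fitted change of log2(FPKM + 1) against the scrambled hairpin over both lines, with its standard error, for each member (rows, in the order of their roles) with ETV1-sh2 (red) and ETV1-sh1 (orange), filled where the adjusted p is under 0.05. The 27 filled points are all ETV1-sh2, and the ETV1-sh1 point lies to the left of the ETV1-sh2 point in CCNB2 and HMMR.

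With ETV1-sh1, 0 of the 40 members passed the test, where 1.51% of all tested genes were lower and 0.773% higher, and 10 members were lower and none higher at an unadjusted p under 0.05. The members' median fitted change was -0.57 against 0.00 over all tested genes, and 39 of the 40 were negative. The smallest adjusted p was 0.0777, in MAD2L1. When the fit held only the 4 libraries of ETV1-sh1 and the scrambled hairpin, 9 members passed. A fit without 1 of the ETV1-sh2 libraries rests on these same 4 libraries for this comparison, so it adds no further result. Within the lines, 5 members in Colo800 and 12 in A375 were at least 2-fold lower than scrambled, where 3.96% and 3.89% of all tested genes were. The median member kept 75.8% of its scrambled level in Colo800 and 58.3% in A375. Both ETV1 hairpin comparisons use the same scrambled libraries, so their values are set side by side without a test of their likeness. All 4 hairpin libraries were below the scrambled library of their line in 33 members, and in 16.8% of all tested genes.

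CCNB2, BUB1B, MAD2L1, HMMR and TOP2A were at or below a 2-fold reduction of the scrambled FPKM with ETV1-sh1 in both lines, as were 2.49% of all tested genes. HMMR, a spindle protein also known as a hyaluronan receptor, stood at 18.6 FPKM with ETV1-sh2, 5.97 FPKM with ETV1-sh1 and 31 FPKM scrambled in Colo800, and at 1.32, 2.48 and 16.7 FPKM in A375. Its ETV1-sh1 library was the lowest in Colo800 and its ETV1-sh2 library the lowest in A375, and neither change passed (-1.82 with ETV1-sh2, adjusted p = 0.0624, and -2.27 with ETV1-sh1, adjusted p = 0.0918). TOP2A had 26.8, 17.7 and 56 FPKM in Colo800 and 1.52, 6.48 and 25.5 FPKM in A375, with a change of -1.72 with ETV1-sh1 (adjusted p = 0.17). BUB1B, which encodes the checkpoint kinase-like protein BUBR1, had 14.6, 9.44 and 24.9 FPKM in Colo800 and 0.635, 2.07 and 7.75 FPKM in A375. The change of BUB1B was -1.58 with ETV1-sh2 (adjusted p = 0.0482) and -1.41 with ETV1-sh1 (adjusted p = 0.145). MAD2L1, which encodes MAD2, the protein that captures CDC20, had 23.3, 21.2 and 44.8 FPKM in Colo800 and 6.83, 10.3 and 23 FPKM in A375 (-1.27 with ETV1-sh2, adjusted p = 0.0204, and -1.07 with ETV1-sh1). In Colo800 these 5 genes, and no other member, were higher with ETV1-sh2 than with ETV1-sh1. The promoter windows of these 5 each hold TTTGAA, as do those of 20 other members, so nothing is read from this about these 5. In TOP2A the matches have their first bases at -194 and -151 from the start, and in MAD2L1 at 24 after it.

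ETV1-sh1 was above scrambled in CCNB1, NEK2, UBE2C, AURKB, BIRC5 and CENPA in Colo800 and in ECT2 alone in A375. Apart from BIRC5, these excesses were small, at 103% to 118% of the scrambled level. In both ETV1-sh2 libraries, 14 members were at or below a 2-fold reduction of the scrambled FPKM, as were 4.89% of all tested genes.

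Between the hairpins, ETV1-sh2 was lower than ETV1-sh1 in 6 members by the test and higher in 0, where 6.91% of all tested genes were lower and 6.82% higher. The 6 were CDK1, AURKB, KIF2C, KIF4A, NDC80 and ANLN. The median difference was -0.89, and CCNB2 (0.80, adjusted p = 0.218) and HMMR (0.45, adjusted p = 0.584) were the 2 positive ones. The largest difference was that of ANLN (-2.37, SE 0.314, adjusted p = 0.00992), and CDK1 differed by -1.65 (adjusted p = 0.0329). The count of 6 was 31 without the Colo800 ETV1-sh2 library, 12 without the A375 scrambled library, 11 without the Colo800 scrambled library and 0 without either one of the ETV1-sh1 libraries. Without the A375 ETV1-sh2 library 4 members were lower, and CCNB2 and HMMR were higher with ETV1-sh2 than with ETV1-sh1 by the test. Without the filter on low values 0 were lower at the adjusted threshold, with 13 at an unadjusted p under 0.05. The fits without 1 of the scrambled libraries rest on the same 4 libraries of the ETV1 hairpins for this comparison, so they are not separate results.

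With both ETV1 hairpins set together against the scrambled one, 0 of the 40 members passed, as did 0.00% of all tested genes, and 14 members were lower at an unadjusted p under 0.05. All 40 fitted changes were negative, with a median of -1.07 and a smallest adjusted p of 0.279. In that fit the difference between ETV1-sh2 and ETV1-sh1 counts as residual spread.

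Colo800 had more of every member than A375 at each hairpin. All 40 were higher in Colo800 by the test, where 31.8% of all tested genes were higher, with differences from 1.18 in MAD2L1 to 3.52 in SPC25 and a median of 2.12. In 35 members every Colo800 library was above every A375 library, as it was in 26.2% of all tested genes. The exceptions were MAD2L1, CDC20, KIF4A, HMMR and TOP2A, in which a Colo800 library with an ETV1 hairpin was below the A375 scrambled one. The median ratio of FPKM in Colo800 over A375 was 12.8 with ETV1-sh2, 4.0 with ETV1-sh1 and 2.93 with the scrambled hairpin. SPC25 had the highest ratio at each hairpin, 66.4, 18.5 and 12.8 in the same order. The smallest ratios were 2.72 in KIF11 with ETV1-sh2, 2.06 in MAD2L1 with ETV1-sh1 and 1.59 in CCNB1 with the scrambled hairpin.

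The level left with ETV1-sh2 was higher in Colo800 than in A375 for 39 members, all but ECT2. DLGAP5, NEK2 and KIF20A are among those furthest apart, as the plot of the level left in each line shows. Whether the effect of both ETV1 hairpins together differed between lines was tested, and 0 of the 40 members passed, as did 0.00% of all tested genes, with 0 members at an unadjusted p under 0.05. In that fit the difference between ETV1-sh2 and ETV1-sh1 within a line counts as residual spread. The members' median SE was 0.976, so the count of 0 says little about whether the lines differ. The differences (Colo800 minus A375) had a median of 0.98 and 39 were positive. A fit for ETV1-sh2 alone was added after this pattern was seen. In it each ETV1-sh2 library has a term of its own, so the 1 residual degree of freedom comes from the ETV1-sh1 and scrambled libraries only, and the spread between ETV1-sh2 libraries is not measured. It called 3 members as less negative in Colo800 (TOP2A, MKI67 and HMMR), where 0.323% of all tested genes were called in that direction, beside the 0 members of the planned test. The median difference of the members in the added fit was 1.33, against -0.01 over all tested genes.

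**Figure D5:**
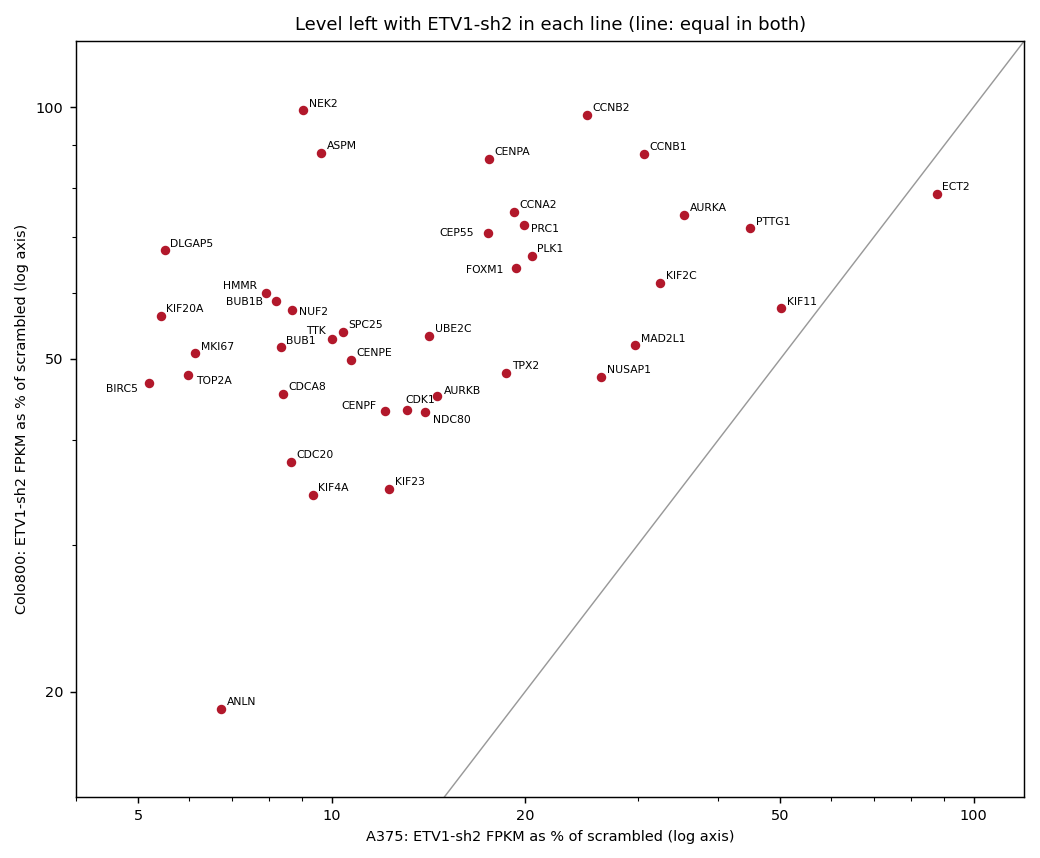
Level with ETV1-sh2 as a percentage of the scrambled library of the same line, in Colo800 (vertical log axis) and A375 (horizontal log axis), 1 point per member, with a line where both are equal. All members but ECT2 lie above the line, and ANLN has the lowest remaining level in Colo800, at 19.1%.

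Other genes of mitosis were read beside the members from 6 lists with 94 genes in the table. With ETV1-sh2, 44 of the 94 were lower by the test and 2 higher, with a median of -0.80. Of all tested genes, 9.00% were lower and 7.73% higher with this hairpin. Of 26 other kinetochore and centromere genes 10 were lower, among them CENPM (-2.34) and SKA1 (-1.81), a subunit of the complex that couples kinetochores to microtubule ends. Of 9 other checkpoint and cohesion genes 7 were lower, with MAD2L1BP at -1.65 and SGOL2, a protector of cohesin, at -1.81. Of 22 other kinesins, spindle and cytokinesis genes 15 were lower, among them KIFC1 (-2.43) and KIF15 (-1.71). Of 8 condensin subunits 6 were lower, led by SMC4, which fell to 31.6 FPKM with ETV1-sh2 against 211 FPKM scrambled in Colo800 and to 9.41 against 70.1 FPKM in A375 (-2.74, adjusted p = 0.00415). Of 16 core subunits and inhibitors of the anaphase-promoting complex 2 were lower and 1 higher, the subunit ANAPC16 (0.85). These counts are near the shares of all tested genes, so nothing is read from them about the list. Of 13 genes in the list of mitotic entry regulators 4 were lower. They include GMNN (-1.03), which encodes geminin, an inhibitor of replication licensing rather than a regulator of mitotic entry. ARPP19, an inhibitor of the phosphatase PP2A, was higher (0.93). With ETV1-sh1, 1 of the 94 was lower, BUB3 (named after its value was seen), where 1.51% of all tested genes were lower. Between the lines 67 of the 94 were higher and 6 lower in Colo800, where 31.8% of all tested genes were higher and 25.3% lower.

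Among 24 genes of the DREAM, MuvB and E2F regulators, 3 were lower and 1 higher with ETV1-sh2, where 9.00% of all tested genes were lower and 7.73% higher, so nothing is read from these counts about the list. E2F1, an activator of the G1 to S transition, was lower (-1.24), with 9.57, 29.7 and 23.8 FPKM in Colo800 and 1.44, 4.54 and 4.84 FPKM in A375. CDKN1B, which encodes the CDK inhibitor p27, was higher (0.98), with 69.6, 41.5 and 32.9 FPKM in Colo800 and 52.8, 44.5 and 27.6 FPKM in A375. Of 29 DNA replication genes 21 were lower with ETV1-sh2, led by TYMS (-4.11). Their median remaining level was 37.1% in Colo800 and 45.1% in A375, beside 55.1% and 12.7% for the mitotic members. The difference between these gene groups was not tested.

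Markers of the remaining cell types were read in the same libraries. Of the leukocyte markers PTPRC did not pass 0.121 FPKM in any library, while CD68, a lysosomal protein, stood at 76.6 FPKM with ETV1-sh2 against 104 FPKM scrambled in Colo800 and at 306 against 87.5 FPKM in A375. Summed keratinocyte markers were 5.43 to 6.86 FPKM in Colo800 and 12.2 to 21.6 FPKM in A375. Summed endothelial markers were 1.33 to 2.41 and 2.94 to 10.4 FPKM in the same order of lines. Only 2 keratinocyte, 1 leukocyte and 2 endothelial markers passed the filter on low values and were tested. Of these few, 0 passed the test with ETV1-sh2 and 0 had an unadjusted p under 0.05. Of 6 melanocyte markers tested, S100B was lower both with ETV1-sh2 (-1.06, adjusted p = 0.0194) and with ETV1-sh1 (-1.70, adjusted p = 0.0197).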

How the data were processed

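RNA from 6 libraries, 1 for each of 2 cell lines and 3 hairpins, was read from a table of FPKM values that the authors deposited. Per the submitters' processing notes, the tools were STAR 2.4, Cufflinks 2.2.1 and Cuffnorm, with hg19 as the genome build. The annotation, filters, scaling and strandedness were not given in the sources used, and reads of overlapping, antisense and near-identical genes may therefore be mixed. FPKM values carry no absolute depth, and a value listed at 0 may be a failed estimate.

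Groups followed the labels. Tests used limma 3.58.1 in R 4.3.3 (lmFit, and eBayes with trend) on log2(FPKM + 1), a pseudocount of 1 that understates the change of low genes. The filter kept the 11129 genes whose mean over the 6 libraries reached an FPKM of 1. Benjamini-Hochberg adjustment ran over all of these genes, with a threshold of 0.05. A single fit with the line and the 3 hairpins as factors, with 2 residual degrees of freedom, gave each ETV1 hairpin against scrambled, the difference between the ETV1 hairpins, and Colo800 against A375. Both ETV1 hairpins against scrambled had 3 residual degrees of freedom, and the difference of this effect between lines had 2. No label says that a line's libraries are separate cultures, so the p-values cover only the spread between these libraries. In the single fit that spread is the disagreement of hairpin differences between the 2 lines, with any technical spread mixed in. A member whose hairpin difference is unlike in the lines thus tends to a larger SE. Within a line no test was possible, and a 2-fold difference was counted. The fits were tested on simulated data. Where the simulated variances followed limma's assumed prior, the share of false calls stayed near the threshold. Where they were fixed at the fitted variances of the real genes, which depart from that prior, more false calls were made than the threshold allows. The share among the calls reported here was not measured and may exceed the threshold.

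The members and the 13 other lists (176 of 185 entries in the table) were chosen with earlier results of these data known. All 40 members are accounted for, and from each other list the 2 genes with the strongest statistic for ETV1-sh2 against scrambled were named, with the defining cell type markers. Alternatives were another pseudocount, no filter or a filter at a mean FPKM of 5, no variance trend, centred or quantile-normalized libraries, each library left out, only the 4 libraries compared, and no block for the line. Promoters came from RefSeq on GRCh38.p14, which is not the files' build, and members were matched by symbol. All 40 member identifiers matched the reference gene names with the same symbol. One marker gene is not reported here.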

Additional observations from a re-analysis of the deposited data

How the results depend on the processing

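The members lower with ETV1-sh2 against scrambled numbered 27 as reported. This count was 0 with no filter on low values, 5 with only the 4 libraries compared and 0 with no replicate block (the cell line left out of the fit), and it ranged from 1 to 38 when 1 library was left out. The other 5 settings gave 20 to 29. For ETV1-sh1 against scrambled the count was 0 as reported, 9 with only the 4 libraries compared and 0 to 9 with 1 library left out. For ETV1-sh2 against ETV1-sh1 the 6 lower members became 0 with no filter, 10 with a filter at a mean FPKM of 5, 11 with only the 4 libraries compared and 0 with no replicate block. With 1 library left out they numbered 0 to 31, and 0 to 2 members were higher. For Colo800 against A375, 37 to 40 members were higher in every setting run. For the difference of the hairpin effect between lines, 3 members passed only in the added fit of ETV1-sh2 alone, and no fit could be made without either scrambled library. The causes were not tested. Blocking by line is the one pairing the labels give, since each group has 1 sample.

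Single genes were followed under other settings for all 40 members, with the named list genes, for ETV1-sh2 against scrambled, and for all 40 for Colo800 against A375. For the remaining comparisons 6 to 8 members each were followed, so sign changes of other members are not among these counts: of the 40 members, 27 to 40 were negative for ETV1-sh1 against scrambled and 33 to 39 for ETV1-sh2 against ETV1-sh1, lowest without A375 scrambled and without A375 ETV1-sh2. Of the values followed, 1408 kept their direction and side of the threshold, 307 lost and 37 gained the call, and 12 changed sign. Sign changes for ETV1-sh2 against scrambled were -0.09 with quantile normalization in KDR, and with 1 library left out -0.26 in KDR (range -0.46 to 0.50), -0.57 in CD68 (to 1.93), -0.12 in KRT10 (to 0.37) and 0.29 in TIE1 (down to -1.02). ECT2 for ETV1-sh1 against scrambled ranged between -0.06 and 0.17 (-0.05 without A375 ETV1-sh1), TTK between -0.60 and 0.16, and HMMR for ETV1-sh2 against ETV1-sh1 between -0.62 and 1.53 (-0.03 without Colo800 ETV1-sh1). None of the values of changed sign passed the test. Absolute depth is unknown, so no floor can be set for the 9 members below 1 FPKM in A375 with ETV1-sh2.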
